A study of Mus musculus with 12 samples.

Results

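The CC chemokines CCL2, CCL5, CCL7, CCL9 and CCL20 were followed in RNA sequencing of CT26 tumor cells, a mouse colon carcinoma cell line grown in culture. They were taken by symbol, 5 of the 23636 symbols of the expression table, and all 5 passed the filter on low values that left 11878 genes to test. The study treated CT26 tumor cells with the chemokine CX3CL1 (2 µg/ml), with interferon-γ (IFN-γ, 100 ng/ml) or with both for 8 hours, and asked which soluble mediators the tumor cells make when CX3CL1 is present. The labels name IFN-γ alone, while a passage of the study's text names TNF-α beside IFN-γ and has CX3CL1 follow them. Whether TNF-α was also present in the IFN-γ groups, and in what order the agents were given, was not settled here. Below, adding an agent to the other names a comparison of groups and not an order of treatment. The 4 groups were No treatment, CX3CL1, IFN-γ and CX3CL1+IFN-γ, with 3 libraries each. All 4 groups were the same cell line, so the values hold for CT26 tumor cells and no second line was analysed here. Levels are in TPM, a transcript abundance scaled for transcript length and library total, which carries no read depth.

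CC chemokines are small secreted proteins that draw leukocytes along a concentration gradient through G protein-coupled receptors, and the family is named for adjacent cysteines near the amino terminus. CCL2 and CCL7 attract monocytes through CCR2, CCL5 attracts T cells and other leukocytes, CCL20 is the ligand of CCR6 on dendritic cells and lymphocyte subsets, and mouse CCL9 attracts myeloid cells through CCR1. Tumor cells can secrete them and so draw leukocytes into a tumor, and many CC chemokine genes respond to NF-κB or to interferon-activated transcription factors.

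CCL2 and CCL7 lay side by side on chromosome 11 in the mouse genome build GRCm38, at chr11:82035571-82037453 and chr11:82045712-82047525 on the plus strand, with 8258 bp between them. CCL5 (chr11:83525778-83530518) and CCL9 (chr11:83572919-83578636) lay 42400 bp apart on the minus strand of the same chromosome, and 1478252 bp separated CCL7 from CCL5. CCL20 was the single gene of the group on another chromosome, at chr1:83116766-83119167 on the plus strand. An annotated gene on the opposite strand, GM17268, spans CCL2, and the setting used to count reads by strand is not given in the sources used here.

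The 5 chemokines showed 3 patterns over the groups. CCL2, CCL7 and CCL20 were low without treatment, rose with CX3CL1 and with IFN-γ, and had their highest means with both. CCL5 was already present without treatment, rose with either agent and followed IFN-γ more than CX3CL1. CCL9 fell wherever IFN-γ was present, and its difference after CX3CL1 alone did not pass the test. Summed, the 5 chemokines made up 14.5 ± 1.94 TPM (SD, n = 3) without treatment, 74.2 ± 24.7 TPM with CX3CL1, 102.5 ± 28.4 TPM with IFN-γ and 267 ± 103 TPM with both. The lowest sums of the treated groups, 46.1, 75.4 and 154 TPM in the same order, lay above the highest sum without treatment, 16.5 TPM. The makeup of the sum also differed. CCL5 gave 52.2% and CCL9 35.2% of it without treatment, while CCL2 gave 48.4% and CCL9 0.451% with both agents.

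**Figure D1:**
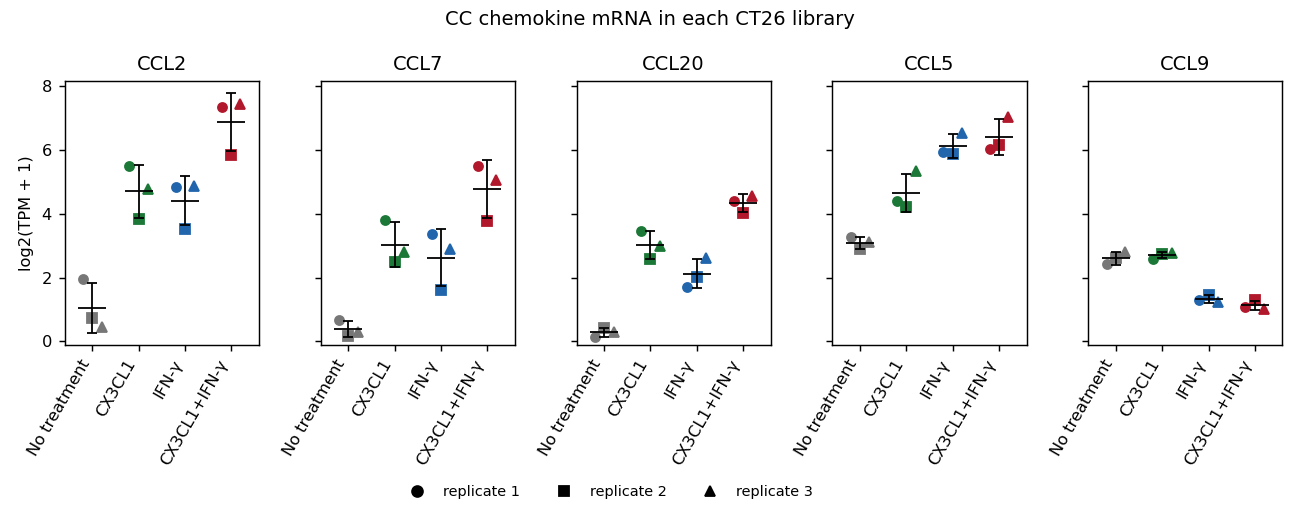
Level of each CC chemokine in every library as log2(TPM + 1), by group. Symbols are replicates 1 to 3, and bars are the mean and SD of the 3 log2 values. CCL2, CCL7 and CCL20 start near 0 and are highest with both agents, CCL5 steps up most with IFN-γ, and CCL9 drops in both IFN-γ groups.

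CCL2, the main monocyte attractant of the family, had the widest range. Its level was 2.85, 0.669 and 0.374 TPM in No treatment replicates 1 to 3 and 44.1, 13.2 and 26.2 TPM after CX3CL1. It was 27.5, 10.6 and 27.8 TPM after IFN-γ and 162, 55.7 and 170 TPM after both. The lowest treated library was thus above every untreated one, the CX3CL1 and IFN-γ groups overlapped, and replicate 2 was the lowest library of all 3 treated groups. On the log2(TPM + 1) scale CX3CL1 raised CCL2 by 3.65 (SE 0.54, limma adjusted p = 0.00259) and IFN-γ raised it by 3.36 (SE 0.54, adjusted p = 0.00165). These folds understate the change in TPM, since the untreated level is close to the pseudocount of 1. As a ratio of mean TPM, CCL2 was 21.4-fold higher with CX3CL1 and 16.9-fold higher with IFN-γ. By replicate number the ratio ran from 15.4 to 70.0 and from 9.65 to 74.4. The untreated mean rested on No treatment replicate 1, without which the ratios were 53.3 and 42.1.

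CCL7, a second ligand of CCR2 and the neighbor of CCL2, followed it at a lower level. It measured 0.599, 0.136 and 0.227 TPM without treatment, and 13.0, 4.55 and 6.0 TPM after CX3CL1. It measured 9.34, 2.07 and 6.35 TPM after IFN-γ, and 44.2, 12.5 and 32.1 TPM after both. Replicate 1 was the highest and replicate 2 the lowest library in every group. Both single agents raised it, CX3CL1 by 2.64 log2 (SE 0.49, limma adjusted p = 0.0110) and IFN-γ by 2.24 log2 (SE 0.49, adjusted p = 0.0130). As for CCL2, these folds understate the change in TPM. In mean TPM CCL7 was 24.5-fold higher with CX3CL1 (21.7 to 33.5 by replicate number) and 18.5-fold higher with IFN-γ (15.3 to 28.0). Without No treatment replicate 1 these ratios were 43.3 and 32.6. The ratio of CCL2 to CCL7 in TPM lay between 2.91 and 5.32 in the 9 treated libraries and between 1.64 and 4.93 in the untreated ones, where both levels were low. Across the 12 libraries CCL2 was among the 3 tested genes most like CCL7 in log2(TPM + 1) (Pearson r = 0.984). Replicate 2 was the lowest library of all 3 treated groups for both genes, whereas the highest library with IFN-γ and with both agents was replicate 3 for CCL2 and replicate 1 for CCL7.

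CCL20, the ligand of CCR6, had the lowest untreated mean of the 5, 0.221 ± 0.119 TPM (SD, n = 3). Its 3 untreated libraries held 0.0992, 0.337 and 0.226 TPM, against 10.1, 4.98 and 6.91 TPM after CX3CL1. After IFN-γ it stood at 2.28, 3.09 and 5.08 TPM, and after both at 20.2, 15.3 and 22.4 TPM. Every treated library lay above the untreated ones, and all libraries with both agents lay above all others. CX3CL1 raised CCL20 by 2.73 log2 (SE 0.25, limma adjusted p = 1.3e-04) and IFN-γ by 1.83 log2 (SE 0.25, adjusted p = 3.3e-04). These folds too understate the change in TPM. In mean TPM CCL20 was 33.1-fold higher with CX3CL1 (14.8 to 101 by replicate number) and 15.8-fold higher with IFN-γ (9.15 to 23.0). Such ratios rest on low untreated levels. After CX3CL1 the order of CCL2, CCL7 and CCL20 differed between the log2 folds and the ratios.

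CCL5, an attractant of T cells, monocytes and other leukocytes, was the most abundant of the 5 without treatment. It measured 8.67, 6.48 and 7.55 TPM without treatment and 20.1, 17.6 and 39.5 TPM after CX3CL1. It measured 59.6, 57.9 and 91.4 TPM after IFN-γ and 64.2, 69.3 and 129 TPM after both. Replicate 3 was the highest library in all treated groups, and the IFN-γ libraries overlapped those with both agents but not those with CX3CL1. The rise with IFN-γ was 3.02 log2 (SE 0.31, limma adjusted p = 3.7e-05) and that with CX3CL1 was 1.56 log2 (SE 0.31, adjusted p = 0.0156).

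CCL9, a mouse ligand of CCR1 also known as MIP-1γ, was the exception. Its untreated libraries held 4.31, 5.04 and 5.95 TPM and its CX3CL1 libraries 4.99, 5.68 and 5.77 TPM. The IFN-γ libraries held 1.44, 1.76 and 1.38 TPM, and those with both agents 1.11, 1.46 and 1.04 TPM. All 6 libraries without IFN-γ were above all 6 with it. IFN-γ lowered CCL9 by 3.34-fold in mean TPM (log2 fold change -1.27, SE 0.13, limma adjusted p = 3.3e-05), and only 17 of the 11878 tested genes had a lower log2 fold change. After CX3CL1 alone the log2 difference was 0.09 (95% interval -0.18 to 0.37, adjusted p = 1.00).

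The sequence upstream of the transcription start is shown for CCL20 and CCL9, which moved in opposite directions with IFN-γ. These are the 250 bases before the start in RefSeq (GRCm38.p6), 5′ to 3′ on the strand of the gene, at chr1:83116516-83116765 (plus) and chr11:83578637-83578886 (minus). CCL2, CCL5 and CCL7 had no entry in the RefSeq promoter table. Capitals mark matches, on either strand, to the consensus motif of NF-κB, to AP-1 (TGANTCA) and to a TATA box (TATAAA).
CCL20: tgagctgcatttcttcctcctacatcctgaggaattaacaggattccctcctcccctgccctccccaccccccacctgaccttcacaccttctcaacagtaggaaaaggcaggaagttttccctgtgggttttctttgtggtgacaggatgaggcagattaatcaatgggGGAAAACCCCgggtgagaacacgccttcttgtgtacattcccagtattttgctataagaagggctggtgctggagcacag
CCL9: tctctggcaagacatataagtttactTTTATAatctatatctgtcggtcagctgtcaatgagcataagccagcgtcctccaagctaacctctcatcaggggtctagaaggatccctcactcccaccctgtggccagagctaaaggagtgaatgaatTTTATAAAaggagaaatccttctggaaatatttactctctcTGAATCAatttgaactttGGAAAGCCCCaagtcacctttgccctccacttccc
The CCL20 sequence held 1 NF-κB match, at 80 to 71 bases before the start. The CCL9 sequence held 1 NF-κB match at 35 to 26 bases before the start, 1 AP-1 match at 53 to 47, and TATA matches at 224 to 219 and, overlapping on the opposite strands, at 92 to 87 and 94 to 89. Neither held a match to the interferon motifs searched, GAS (TTC, any 3 bases, GAA) and ISRE (GAAA, any 2 bases, GAAA). Of 27025 promoters of the same length, 3.75% held the NF-κB consensus, 7.18% GAS, 3.04% ISRE, 6.87% AP-1 and 13.0% the TATA box. A match in these letters is a description and does not show binding.

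Counted over the 5 chemokines, CX3CL1 treatment alone upregulated 4 (CCL2, CCL5, CCL7 and CCL20), against 1.95% of all tested genes called in that comparison. Their median log2 fold change was 2.64 and that of all tested genes -0.02. The genes were chosen with the CX3CL1 response of these libraries known, so this count is not independent evidence of its direction. In bulk RNA, more expressing cells and more RNA per cell cannot be told apart. The calls for CCL5 and CCL7 were close to the threshold. They were lost without the filter on low values (adjusted p = 0.0691 and 0.0586), without No treatment replicate 2 (0.0838 and 0.0606) and without No treatment replicate 3 (0.0714 and 0.0588). CCL5 also lost its call without CX3CL1 replicate 3 (adjusted p = 0.0615), as did CCL7 without CX3CL1 replicate 1 (0.0530).

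IFN-γ treatment alone changed all 5, with 4 higher and CCL9 lower, against 7.85% of tested genes called. The same No treatment libraries served as the controls of both comparisons. For none of the 5 did the IFN-γ libraries overlap the untreated ones, which held for 34.2% of all tested genes. CCL7 was the only call that depended on single libraries. Its limma adjusted p was 0.0502 without No treatment replicate 2 and 0.0571 without No treatment replicate 3. It was 0.0614 without IFN-γ replicate 1 and 0.0596 without IFN-γ replicate 3. In the limma fit with the replicate number as a block, all 5 were called, CCL7 with an adjusted p of 1.1e-04. That fit called 1929 of the 11878 tested genes, against 932 without the block.

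Set directly against each other, the agents differed in CCL5 and CCL9. CCL5 was 2.7-fold higher in mean TPM with IFN-γ than with CX3CL1 (log2 fold change 1.46, SE 0.31, limma adjusted p = 0.0184), and CCL9 was 3.59-fold lower (log2 fold change -1.36, SE 0.13, adjusted p = 1.6e-04). These 2 of 5 calls stood against 4.58% of tested genes. CCL2 (log2 difference -0.29, 95% interval -1.47 to 0.89) and CCL7 (-0.41, -1.47 to 0.66) did not pass the test, with intervals that leave room for a difference of over 1 log2 unit in CX3CL1's favor. CCL20 was lower with IFN-γ by 0.89 log2, with an adjusted p of 0.0591 that became 0.0310 with the replicate number as a block. The call of CCL5 was lost without the filter (adjusted p = 0.0561) and without CX3CL1 replicate 1 (0.0538), CX3CL1 replicate 2 (0.0726) or IFN-γ replicate 3 (0.0865). CCL20 passed without CX3CL1 replicate 2 (0.0406) and without IFN-γ replicate 3 (0.0374), and with quantile normalization (log2 difference -1.05, adjusted p = 0.0335).

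**Figure D2:**
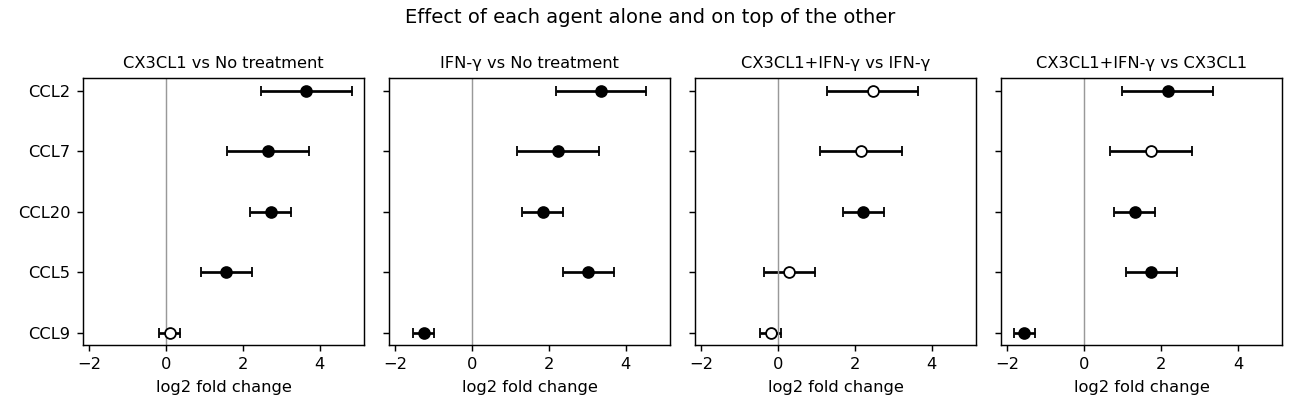
Log2 fold changes on the log2(TPM + 1) scale with 95% intervals from limma, for each agent alone and on top of the other. Filled points passed an adjusted p of 0.05 over all tested genes and open points did not. CCL5 shows a shift near 0 when CX3CL1 is added to IFN-γ, and CCL9 lies below 0 in both comparisons that add IFN-γ.

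Adding CX3CL1 to IFN-γ asks whether CX3CL1 still acts on tumor cells under an inflammatory cytokine. CCL20 rose by a further 2.21 log2 (SE 0.25, limma adjusted p = 0.00101), or 5.54-fold in mean TPM. It was the 1 chemokine of 5 called, against 0.362% of tested genes. CCL2 was 5.88-fold and CCL7 5.0-fold higher in mean TPM with both agents than with IFN-γ, but the adjusted p was 0.123 and 0.146. For both genes the groups did not overlap, which held for 16.3% of all tested genes. The same replicate numbers varied together in these groups, and the fold for libraries of the same number was narrow, 5.27 to 6.13 for CCL2 and 4.74 to 6.06 for CCL7. With the replicate number as a block, CCL2 (adjusted p = 0.00306) and CCL7 (adjusted p = 0.00199) passed as well. So 3 of 5 were called with the block, which called 95 of the 11878 tested genes, against 43 without it. CCL2 and CCL7 also passed without CX3CL1+IFN-γ replicate 2, their lowest library of that group (adjusted p = 0.0295 and 0.0276). CCL5 showed a log2 difference of 0.29 (95% interval -0.38 to 0.95) and CCL9 of -0.20 (95% interval -0.48 to 0.08), neither of which passed with or without the block.

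**Figure D3:**
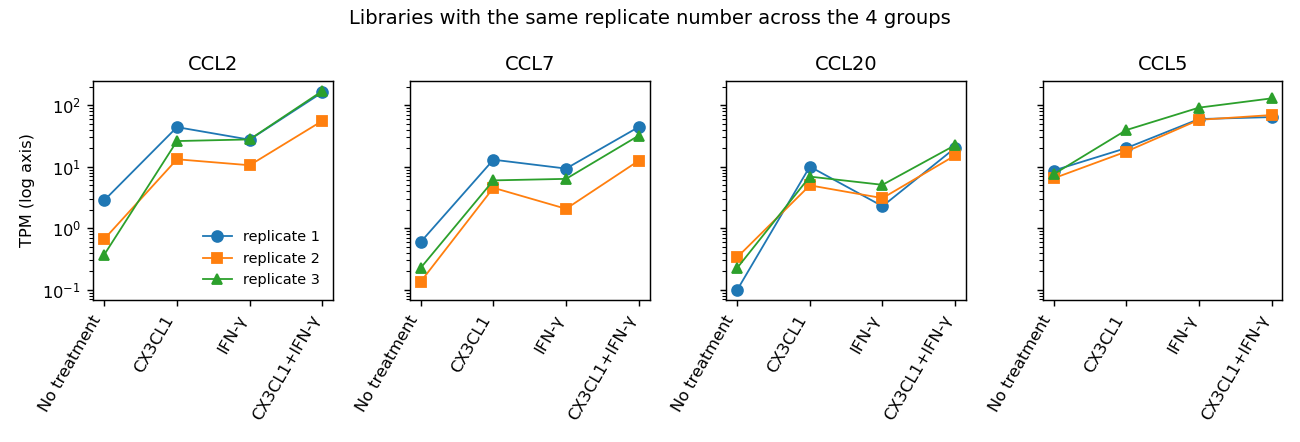
TPM on a log axis for CCL2, CCL7, CCL20 and CCL5 in the 4 groups, with lines joining libraries of the same replicate number. For CCL2 and CCL7 the lines run nearly parallel from IFN-γ to both agents, with replicate 2 lowest at each treated step, and for CCL5 they are nearly flat at that step.

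Adding IFN-γ to CX3CL1 raised CCL5 by 1.74 log2 (SE 0.31, limma adjusted p = 0.00538), CCL2 by 2.17 log2 (SE 0.54, adjusted p = 0.0396) and CCL20 by 1.32 log2 (SE 0.25, adjusted p = 0.00784). It lowered CCL9 by 4.55-fold in mean TPM (log2 fold change -1.56, SE 0.13, adjusted p = 5.6e-05). These 4 calls of 5 stood against 4.7% of tested genes. CCL7 was 3.77-fold higher in mean TPM, with 1 pair of libraries from the 2 groups in reversed order, and an adjusted p of 0.0671 that became 0.00108 with the block. CCL7 also passed without CX3CL1 replicate 1 (0.0426), IFN-γ replicate 2 (0.0359) or CX3CL1+IFN-γ replicate 2 (0.0175). The call of CCL2 was lost with a pseudocount of 0.1 (adjusted p = 0.0824), without the filter (0.105), and without No treatment replicate 2 (0.0523) or 3 (0.0506), CX3CL1 replicate 2 (0.106) or 3 (0.0928), or CX3CL1+IFN-γ replicate 1 (0.151) or 3 (0.166).

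Against no treatment, both agents together changed all 5 chemokines, with 4 higher and CCL9 lower, where 11.9% of tested genes were called. In mean TPM CCL2 was 99.5-fold, CCL7 92.4-fold, CCL20 87.4-fold and CCL5 11.6-fold higher, while CCL9 was 4.24-fold lower. By replicate number these folds ran from 56.6 to 456 for CCL2, 73.9 to 141 for CCL7, 45.2 to 204 for CCL20 and 7.41 to 17.1 for CCL5. Without No treatment replicate 1 the fold was 248 for CCL2 and 163 for CCL7. All 5 kept their call when any single library was left out.

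The response to both agents was then compared with the responses to each alone. In TPM, the rise of CCL5 with both agents was 80.0 TPM and the rises with CX3CL1 and with IFN-γ added up to 80.2 TPM. The difference between these was -0.175 TPM (SE 24.6), and by replicate number the ratio of the combined rise to the sum ran from 0.890 to 1.05. For CCL2 the combined rise was 2.71 times the sum of the single rises (2.41 to 3.2 by replicate number), for CCL7 2.23 times (1.95 to 2.68) and for CCL20 1.84 times (1.66 to 2.02). In TPM the excess over the sum was 80.8 (SE 38.4) for CCL2, 16.2 (SE 9.83) for CCL7 and 8.73 (SE 2.72) for CCL20. The combined rise was above the sum in 3 of 3 replicate numbers for these genes, while CCL5 lay on either side of it. Libraries of No treatment did not vary together at every replicate number with those of CX3CL1 and CX3CL1+IFN-γ. The labels do not say what a number shares, so the values by number describe the spread and are not taken as paired measurements.

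**Figure D4:**
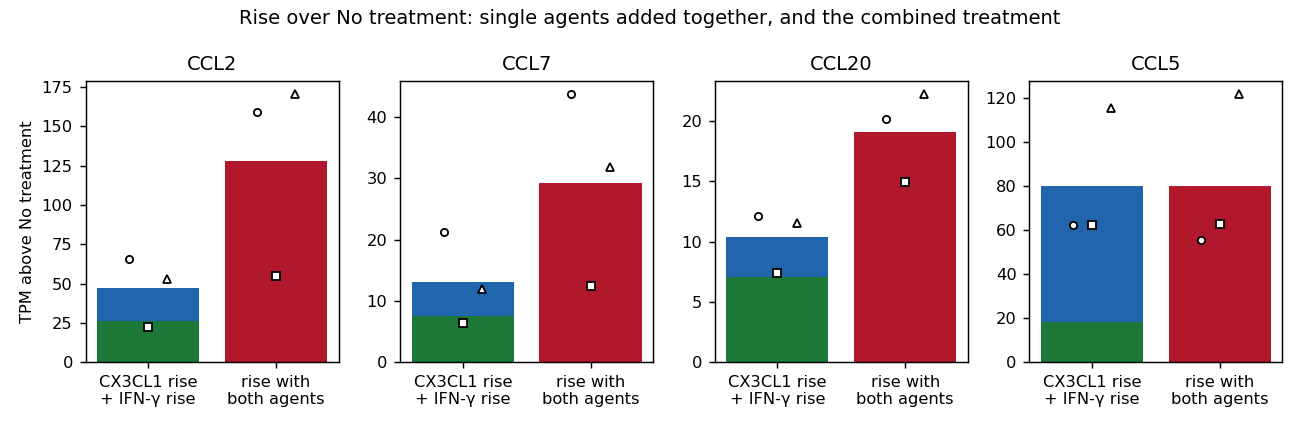
Rise over No treatment in TPM for CCL2, CCL7, CCL20 and CCL5. The left bar stacks the mean rise with CX3CL1 (green) and with IFN-γ (blue), the right bar is the mean rise with both agents (red), and open symbols are replicates 1 (circle), 2 (square) and 3 (triangle). The bars are level for CCL5, and the right bar is 2.71 times the left for CCL2.

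On a multiplicative scale the picture was the opposite. The folds of the single agents in mean TPM multiply to 362 for CCL2, 452 for CCL7, 523 for CCL20 and 31.3 for CCL5, each above the fold seen with both agents. The size of these products rests on low untreated levels. Leaving out each No treatment library in turn, they ran from 197 to 2247 for CCL2, 273 to 1411 for CCL7, 321 to 964 for CCL20 and 27.3 to 36.4 for CCL5, with the highest value without replicate 1 for CCL2, CCL7 and CCL5 and without replicate 2 for CCL20. Each product remained above the combined fold computed from the same libraries. The interaction term of the limma fit, which asks whether the effect of CX3CL1 on the log2 scale differs when IFN-γ is present, was below 0 for all 5. It called 0 of the 5 chemokines and 0% of tested genes, with 273 genes at an unadjusted p under 0.05. With the pseudocount of 1, CCL5 had the largest estimate (-1.28, SE 0.43, unadjusted p = 0.0118, adjusted p = 1.00). The estimates of CCL2 (-1.19, SE 0.77), CCL20 (-0.52, SE 0.35), CCL7 (-0.50, SE 0.69) and CCL9 (-0.29, SE 0.18) were smaller than 2 SE, and that of CCL7 became 0.0069 without CX3CL1+IFN-γ replicate 2. This order depended on the pseudocount. With a pseudocount of 0.1 the estimates were -2.09 for CCL2, -2.05 for CCL20 and -1.89 for CCL7, none of them called. CCL5 went no lower than -1.59 under any alternative.

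The 5 chemokines differed in their spread between replicates. The pooled SD within groups was 0.82 log2 for CCL2 and 0.74 for CCL7, larger than in 99.7% and 99.6% of tested genes. It was 0.45 for CCL5, 0.35 for CCL20 and 0.14 for CCL9, against a median of 0.17 over all tested genes.

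The genes nearest to each chemokine in pattern, by Pearson r of log2(TPM + 1) over the 12 libraries, differed between them. These libraries share 4 group means, so r describes the pattern over groups first. CCL2 was most like FAS (r = 0.986), LIF (r = 0.986) and PLK2 (r = 0.984). FAS encodes a death receptor, LIF a cytokine of the IL-6 family and PLK2 a protein kinase. Closest to CCL7 were NRP2 (r = 0.986), CCL2 and FAS (both r = 0.984). CCL5 was most like UBA7 (r = 0.994), IFI44L (r = 0.991) and RSAD2 (r = 0.990), all known as interferon-stimulated genes. CCL20 was most like PLSCR1 (r = 0.981), PPBP, a CXC chemokine (r = 0.978), and BCL2L15 (r = 0.967). Nearest to CCL9 were IFI27 (r = 0.964) and the acetyl-CoA acetyltransferases ACAT1 and ACAT2 (both r = 0.963). IFI27 averaged 101 TPM without treatment and 33.9 TPM with IFN-γ.

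Most annotated neighbors of the 5 chemokines were near 0 in these cells. Within 100 kb of the 5 genes lay 20 other annotated protein-coding genes, of which 15 could be matched to the table and 5 passed the filter. CCL11, CCL12 and CCL8, which follow CCL7 on chromosome 11, reached at most 0.0881, 0.159 and 0.532 TPM in any library. CCL6, 9246 bp from CCL9, reached at most 0.524 TPM. MMP28, a matrix metalloproteinase on the far side of CCL5, rose with IFN-γ by 0.76 log2 (limma adjusted p = 0.0364) and was higher with both agents than with CX3CL1 (0.83, adjusted p = 0.0333) and with IFN-γ than with CX3CL1 (0.96, adjusted p = 0.0184), and TAF15 did not pass with IFN-γ against No treatment (log2 difference 0.44, adjusted p = 0.0779). TAF15, which encodes an RNA-binding protein, was higher with both agents than without treatment (0.60, adjusted p = 0.0121) and than with CX3CL1 (0.62, adjusted p = 0.0227).

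Of 17 other CC chemokines with a row, 6 passed the filter and 7 were listed at 0 in every library. CX3CL1 alone and IFN-γ alone each changed 0 of these 6 by the limma test, where 1.95% and 7.85% of all tested genes were called. At such shares, 0 of 6 does not set them apart from other genes. CCL17, a ligand of CCR4 on T cells, measured 4.55, 1.71 and 2.77 TPM without treatment, 19.1, 5.89 and 13.3 TPM with CX3CL1, 1.22, 0.169 and 0.167 TPM with IFN-γ and 5.22, 0.805 and 1.17 TPM with both. It was lower with IFN-γ than with CX3CL1 (log2 fold change -3.12, adjusted p = 0.00348) and lower with both agents than with CX3CL1 (-2.11, adjusted p = 0.0251). Neither its difference between IFN-γ and No treatment (-1.41, adjusted p = 0.102) nor that between CX3CL1 and No treatment (1.71, adjusted p = 0.131) passed the test, and replicate 1 was its highest library in every group. CCL4, an attractant of macrophages and T cells, rose with both agents from 0.170 ± 0.219 to 2.24 ± 1.29 TPM (log2 fold change 1.41, adjusted p = 0.00258). It was also higher with both agents than with CX3CL1 (1.17, adjusted p = 0.0217). CCL3, a close relative of CCL4, averaged 0.0799, 1.58, 0.258 and 1.82 TPM in the 4 groups in the same order and was called in none of the comparisons. CCL25 had group means of 11 to 14.9 TPM and was called in none, and CCL6 and CCL28 stayed below 1 TPM in every library.

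**Figure D5:**
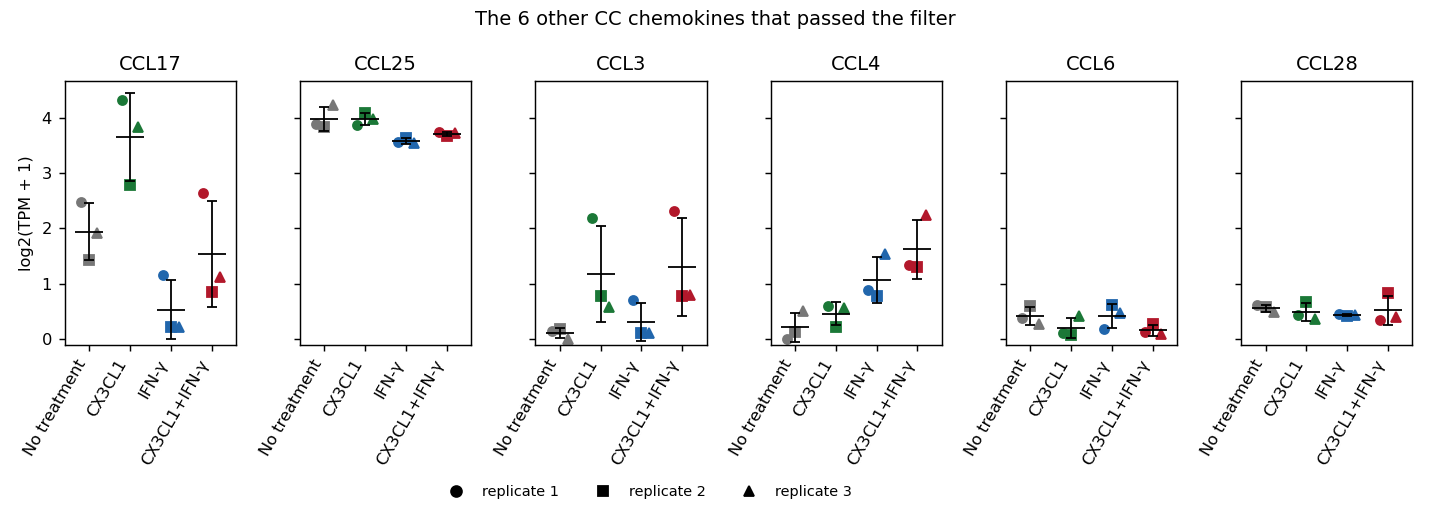
Log2(TPM + 1) of the 6 other CC chemokines that passed the filter, by group, with replicates as symbols and the mean and SD of the log2 values as bars. CCL17 is low in both IFN-γ groups relative to CX3CL1, and CCL4 is highest with both agents.

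Receptors for these ligands were mostly near 0 in the CT26 tumor cells. Of 15 CC chemokine receptor genes, 2 passed the filter. CCR1, a receptor of CCL5, CCL7 and CCL9, averaged 2.04 ± 0.802 TPM without treatment and 4.68 ± 1.20 TPM with IFN-γ (log2 fold change 0.91, limma adjusted p = 0.0215). CCRL2, an atypical receptor, rose from 0.0455 ± 0.0405 to 2.00 ± 1.45 TPM (1.42, adjusted p = 0.0192). CCR2 and CCR6, the receptors of CCL2 and CCL20, reached at most 0.0144 and 0.0207 TPM. CX3CR1, the receptor of the added CX3CL1, was at most 0.154 TPM and below the filter. That value is RNA, whereas the study reported high CX3CR1 protein on CT26 tumor cells by flow cytometry. The IFN-γ receptor genes IFNGR1 (23.2 to 26.7 TPM in group means) and IFNGR2 (32.0 to 48.1 TPM) were called in none of the comparisons.

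Transcription regulators of the NF-κB and interferon pathways were listed as a group of 23, all of which passed the filter. By the limma test CX3CL1 raised 10 and lowered 0 of them, where 1.95% of all tested genes were called, among them NFKBIZ (2.67 log2) and NFKBIA (2.25), which encode IκB proteins, and the NF-κB subunit RELB (1.67). IFN-γ raised 13 and lowered 0, against 7.85% of tested genes, among them IRF7 (3.84), STAT2 (2.64) and IRF1 (2.31). Their median log2 fold change was 0.80 in both comparisons, against -0.02 and 0.03 over all tested genes. When CX3CL1 was added to IFN-γ, 2 rose, NFKBIZ by 2.46 log2 and NFKB1 by 0.82 log2, against 0.362% of tested genes, and the median was 0.19. NFKBIZ measured 6.35 ± 0.767 TPM without treatment, 45.6 ± 3.37 with CX3CL1, 12.1 ± 4.66 with IFN-γ and 70.1 ± 21.1 with both. IFN-γ added to CX3CL1 raised 9, against 4.7% of tested genes, led by IRF7 (2.33 log2).

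Markers of other cell types were checked in the same libraries. Of 15 leukocyte markers 2 passed the filter and 0 were called in any comparison by limma. CD3E, MS4A1 and NCR1 were listed at 0 in all 12 libraries and PTPRC reached at most 0.0441 TPM. The summed leukocyte list ran from 9.07 to 17.8 TPM without treatment, 8.41 to 22.3 with CX3CL1, 9.66 to 20.3 with IFN-γ and 10.2 to 27.6 with both, most of it CD68. CD68 was highest in replicate 1 of every group, as was CCL7, and its part in the spread of CCL7 was not tested.

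Of 9 endothelial and fibroblast markers 4 passed the filter, and the fibroblast collagens were high. The list summed to 755 to 955 TPM without treatment, 529 to 679 with CX3CL1, 638 to 737 with IFN-γ and 484 to 540 with both, while the endothelial markers PECAM1 and CDH5 reached at most 0.0468 and 0.0203 TPM. COL1A2 was lower with CX3CL1 (log2 fold change -0.50, limma adjusted p = 0.0408). With both agents COL1A1 (-1.24, adjusted p = 0.00139) and COL1A2 (-0.70, adjusted p = 0.00109) were lower and DCN (1.22, adjusted p = 9.5e-05) was higher than without treatment, and DCN was higher than with CX3CL1 (0.95, adjusted p = 0.00249). Of 9 epithelial markers, KRT18 and KRT20 passed the filter, EPCAM was listed at 0 in every library and CDH1 reached at most 0.0430 TPM. The epithelial list summed to 51.3 to 64.8 TPM without treatment, 33.6 to 44.4 with CX3CL1, 35.8 to 41.9 with IFN-γ and 24.9 to 33.2 with both. KRT18 was lower with IFN-γ (log2 fold change -0.68, adjusted p = 0.0346) and with both agents (-1.02, adjusted p = 0.00171) than without treatment. These fibroblast and epithelial markers moved in the same comparisons as the chemokines, and their part in the chemokine differences was not tested.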

How the data were processed

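RNA of CT26 tumor cells was sequenced from strand-specific mRNA libraries. Per the labels, the authors aligned reads to mm10 with STAR (2.7.3a) and used DESeq2 (1.22.1), and the values they deposited are TPM, which sum to 1000000 in each of 12 libraries. Gene counts were not analysed here, read depth is unknown, and no counting interval was computed. The annotation behind the TPM and the strand setting are not given in the sources used here. Of the value columns, 0 were left unused. In the table, 26 symbols had been turned into dates and 2 names occurred more than once, none of them a chemokine described here. Groups and replicate numbers were taken from the labels, and doses and time from the study's text. The labels call the libraries biological replicates and do not say whether they came from separate cultures or days, so p-values measure the spread between these samples.

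Here log2(TPM + 1) of the 11878 symbols with a mean of at least 0.2 TPM was fitted with limma 3.58.1 (R 4.3.3) as 4 group means over all libraries, with moderated variances and two-sided tests. Genes were called at a Benjamini-Hochberg adjusted p of 0.05 over all tested genes, per comparison. The procedure was tested on simulated data. The members and gene lists were chosen with earlier results of these data known. The genes named were the 5 members, the other CC chemokines, their receptors and the receptors of both agents that passed the filter, at most 4 called regulators per comparison with the largest absolute log2 fold change, the 3 genes most like each member, and neighbors within 100 kb. The levels of NFKBIZ and the marker genes named were singled out after their values were seen. Some members of the lists are not reported here by name. Positions came from the GENCODE annotation of GRCm38, which is mm10, and promoters from RefSeq GRCm38.p6.

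Deviations from group means were correlated between libraries of the same replicate number over all tested genes. They exceeded 0.1 for all 3 numbers between No treatment and IFN-γ (0.220 to 0.460), CX3CL1 and IFN-γ (0.226 to 0.584), CX3CL1 and CX3CL1+IFN-γ (0.351 to 0.428), and IFN-γ and CX3CL1+IFN-γ (0.630 to 0.649), so a fit with the replicate number as a block is given there. As alternatives, each library was left out in turn, the fit was limited to the 6 libraries of a comparison, the block was added, the pseudocount was set to 0.1, the filter was dropped or raised to 1 TPM, and values were rescaled by median ratios or by quantiles.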

Additional observations from a re-analysis of the deposited data

How the results depend on the processing

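No called fold change of the 5 chemokines changed sign under any alternative. Differences that were not called did change sign with 1 library left out. CCL9 after CX3CL1 ran from -0.0016 log2 (without No treatment replicate 1) to 0.19, and CCL5 with both agents against IFN-γ from -0.029 (without CX3CL1+IFN-γ replicate 3) to 0.50. Between IFN-γ and CX3CL1, CCL2 ran from -0.72 to 0.15, being above 0 without IFN-γ replicate 2 and without CX3CL1 replicate 1 (0.11), and CCL7 from -0.78 to 0.095 (without IFN-γ replicate 2). The interaction of CCL7 ran from -1.0 to 0.0069 (without CX3CL1+IFN-γ replicate 2). The cause of these changes of sign was not tested. The size of the interaction also depended on the pseudocount. With 0.1 in place of 1 it went from -0.50 to -1.89 for CCL7, from -0.52 to -2.05 for CCL20 and from -1.19 to -2.09 for CCL2.

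The number of the 5 chemokines called fell from 4 to 2 for CX3CL1 against No treatment and from 2 to 1 for IFN-γ against CX3CL1 when no filter was used. With 1 library left out these numbers ran from 2 to 4 for CX3CL1, 4 to 5 for IFN-γ, 1 to 3 for both against IFN-γ, 3 to 5 for both against CX3CL1, 5 to 5 for both against No treatment and 1 to 2 for IFN-γ against CX3CL1. The interaction gave 0 throughout.

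With the replicate number as a block, 3 of the 5 were called for both agents against IFN-γ, 5 for both against CX3CL1 and 3 for IFN-γ against CX3CL1. No other call on the 5 changed. For No treatment with CX3CL1, the correlation of same-number deviations was 0.0047 at replicate 2, against 0.387 and 0.301 at replicates 1 and 3. For No treatment with CX3CL1+IFN-γ it was 0.032 at replicate 3, against 0.312 and 0.447 at replicates 1 and 2. In these pairs not every library was most like its own number, and whether the numbers mark shared experiments was not settled here. Over all genes the block called 455 for CX3CL1, 1929 for IFN-γ, 95 for both against IFN-γ, 1369 for both against CX3CL1, 2464 for both against No treatment, 1601 for IFN-γ against CX3CL1 and 52 for the interaction, against 232, 932, 43, 558, 1417, 544 and 0 without it.

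Over all genes, both against IFN-γ gave 28 calls without the filter and 20 from its 6 libraries alone. From 6 libraries alone, both against CX3CL1 gave 347 and IFN-γ against CX3CL1 252, fewer samples being fitted. Quantile normalization called 1 gene for the interaction. With 1 library left out the calls over all genes ran from 152 to 268, 536 to 1499, 16 to 54, 268 to 667, 920 to 1892, 185 to 583 and 0 to 11, in the order used for the block. Scaling moved the split of higher to lower calls. For IFN-γ it was 702 to 230, and 642 to 349 with median-ratio scaling or 556 to 536 with quantile normalization. For both against CX3CL1 it was 447 to 111, 360 to 185 or 349 to 228, for IFN-γ against CX3CL1 418 to 126, 305 to 240 or 278 to 236, and for both against No treatment 975 to 442 or, by quantile normalization, 797 to 888. TPM hold no depth, so the counting error of low levels such as those of CCL7 and CCL20 without treatment could not be computed.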
